A study of Mus musculus with 6 samples.

Results

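Transcripts of 40 genes that act in pre-mRNA splicing were followed in the apex of mouse hearts after ischaemia and reperfusion, with dexmedetomidine or vehicle given beforehand. The 40 were 10 SR proteins (serine/arginine-rich splicing factors, Srsf), 2 TRA2 proteins, 3 CLK kinases, 5 RBM proteins, 3 LUC7-like proteins, 4 speckle and SR-related proteins, 2 DEAD-box helicases and 11 hnRNP proteins, of 37620 genes in the deposited count table. Each one matched a single row, and each passed the filter on low counts that left 14738 genes for testing. They were chosen by name from splicing factor families with the measured differences of this same comparison already known, so their differences are given as a description and support nothing about the classes.

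All mice were wild-type C57/BL6J, went through 30 min of myocardial ischaemia and 120 min of reperfusion, and got vehicle of yohimbine (yohimbine itself, a blocker of alpha-2 adrenergic receptors, was given to none of them). The dexmedetomidine group, with 3 libraries, received this vehicle 30 min before 10 µg/kg dexmedetomidine, a sedative that activates alpha-2 adrenergic receptors, and surgery followed 20 min after the drug. The vehicle group, also with 3 libraries, received the yohimbine vehicle and the dexmedetomidine vehicle before surgery. The labels describe infusion through the tail vein within 10 min, give no time course for the vehicle group, and state neither age nor sex, nor whether each library came from a separate animal.

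Splicing removes introns from pre-mRNA, and exons that are not always included are chosen by proteins that bind the RNA. SR proteins bind exonic sequences through RNA recognition motifs and recruit the spliceosome through a domain rich in arginine and serine, while hnRNP proteins often act against them at silencer sequences. CLK kinases phosphorylate that domain and release SR proteins from nuclear speckles, the bodies in which splicing factors are stored. Many genes of these families hold ultraconserved "poison" exons or retained introns, through which the proteins limit their own mature mRNA. In the heart, RBM20 and RBM24 steer the splicing of sarcomere genes such as titin, and mutations of human RBM20 cause dilated cardiomyopathy.

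Promoters were available from RefSeq (GRCm38.p6) for 36 of the 40 genes. The 250 bases before the listed start are printed for 4 genes with higher mean counts after dexmedetomidine (Rbm39, Luc7l3, Srsf10 and Clk4) and for Srsf4, whose mean was lower, to show what these windows hold. They lie at chr2:156180239-156180488 (minus strand), chr11:94321964-94322213 (minus strand), chr4:135855821-135856070 (plus strand), chr11:51262864-51263113 (plus strand) and chr4:131873387-131873636 (plus strand). Each is written 5′ to 3′ along its gene. Capitals mark matches, on either strand, to the GC box GGGCGG, the CCAAT box CCAAT, the ETS core CCGGAAG and the full cyclic AMP response element TGACGTCA.
Rbm39: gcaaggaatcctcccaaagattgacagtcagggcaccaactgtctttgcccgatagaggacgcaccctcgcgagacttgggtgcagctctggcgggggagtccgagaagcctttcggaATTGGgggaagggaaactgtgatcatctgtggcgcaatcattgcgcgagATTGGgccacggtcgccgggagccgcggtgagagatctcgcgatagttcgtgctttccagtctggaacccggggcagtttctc
Luc7l3: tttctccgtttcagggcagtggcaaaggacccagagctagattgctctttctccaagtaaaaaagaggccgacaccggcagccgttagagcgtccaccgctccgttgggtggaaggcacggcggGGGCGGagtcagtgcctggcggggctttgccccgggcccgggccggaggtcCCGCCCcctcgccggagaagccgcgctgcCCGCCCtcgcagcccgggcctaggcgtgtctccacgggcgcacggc
Srsf10: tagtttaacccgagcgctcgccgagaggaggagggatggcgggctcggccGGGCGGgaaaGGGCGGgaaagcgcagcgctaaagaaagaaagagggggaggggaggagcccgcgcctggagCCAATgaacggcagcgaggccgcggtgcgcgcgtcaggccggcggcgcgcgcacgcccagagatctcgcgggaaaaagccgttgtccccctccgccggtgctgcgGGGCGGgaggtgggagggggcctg
Clk4: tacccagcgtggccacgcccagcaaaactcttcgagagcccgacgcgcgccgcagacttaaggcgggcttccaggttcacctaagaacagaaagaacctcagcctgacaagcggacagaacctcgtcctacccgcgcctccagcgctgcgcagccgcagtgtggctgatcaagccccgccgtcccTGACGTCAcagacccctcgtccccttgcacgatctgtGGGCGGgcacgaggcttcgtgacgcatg
Srsf4: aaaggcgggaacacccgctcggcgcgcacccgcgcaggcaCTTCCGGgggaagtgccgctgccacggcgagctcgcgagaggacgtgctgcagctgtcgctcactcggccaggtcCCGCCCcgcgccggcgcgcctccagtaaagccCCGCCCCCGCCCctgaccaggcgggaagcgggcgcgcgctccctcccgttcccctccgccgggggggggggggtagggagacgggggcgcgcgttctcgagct

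GC boxes stood in the windows of 23 of 36 splicing factor genes (63.9%) and in 58.1% of 10767 such windows of tested genes. GC boxes can overlap one another in a run, and no match of another motif overlaps them in the 5 windows shown. A CCAAT box was found in 18 of 36 windows (50%, against 35.8% of tested genes), among them those of Rbm39 and Srsf10. The ETS core was found in 6 of 36 (16.7%, against 13.1%), including Srsf4. The TATA box TATAAA was found in 4 of 36 (11.1%, against 6.59%). The full cyclic AMP response element was in 2 windows, those of Clk4 and Tra2a (5.56%, against 2.68%). Srsf4 and Luc7l3 each held 3 GC boxes, so this motif was present both in a gene with a lower and in one with a higher mean count. A match describes letters only, and binding was not measured.

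Libraries held 42.7 to 48.6 M gene counts after dexmedetomidine and 50.3 to 56.6 M after vehicle. Mitochondrially encoded genes took 27.1%, 36.9% and 38.2% of gene counts in dexmedetomidine libraries 1, 2 and 3, and 25.2%, 22.01% and 23.3% in the vehicle libraries (means 34.0% ± 6.09 and 23.5% ± 1.62, SD, n = 3 each; exact two-sided permutation p = 0.1, the smallest possible). Cardiomyocyte markers were abundant in every library and their summed level was lower after dexmedetomidine, at 52270 to 58840 CPM (counts scaled to a common library size) against 60340 to 72530 CPM in vehicle libraries, with 3 of 13 markers higher and 10 lower. Fibroblast markers summed to 1184 to 1409 CPM after dexmedetomidine and 1001 to 1095 CPM after vehicle, with 5 of 8 higher and 3 lower. Smooth muscle and pericyte markers summed to 1651 to 1929 CPM after dexmedetomidine and 1295 to 1453 CPM after vehicle, with 3 of 8 higher and 5 lower. Endothelial sums were 1493 to 1600 CPM after dexmedetomidine and 1508 to 1665 CPM after vehicle, with 5 of 8 higher and 3 lower. Macrophage sums overlapped likewise, with 3 of 9 markers higher and 6 lower. Neutrophil sums also overlapped, at 46.8 to 183 CPM after dexmedetomidine and 60.9 to 119 CPM after vehicle, but all 6 tested neutrophil markers were higher. Of the markers listed for these types none was at 0 in all libraries, while adipocyte markers were near 0 (at most 1.00 CPM after dexmedetomidine and 0.277 CPM after vehicle). In such bulk tissue fewer cells of a type and less RNA per cell cannot be told apart. On the first principal component, with 47.3% of the variance, dexmedetomidine libraries lay at -17.6, -28.1 and -46.6 and vehicle libraries at 26.3, 69.8 and -3.67. Vehicle replicate 2 therefore lay farthest from the dexmedetomidine libraries and vehicle replicate 3 nearest to them.

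Of the 40 splicing factor genes, 32 had a higher and 8 a lower mean after dexmedetomidine, where 50.3% of all tested genes were higher. Luc7l3, Rbm25, Pnisr, Rbm39, Clk1, Luc7l2 and Srsf10 were the 7 genes with a fitted difference above 1.5-fold, and none was below the inverse of 1.5-fold. The median log2 fold change, dexmedetomidine over vehicle, was 0.22 for the 40 genes and 0.003 for all tested genes. None of the 40 passed an adjusted p of 0.05 in edgeR's quasi-likelihood test (adjusted p from 0.101 to 0.995), nor did any other tested gene, the background being 0.0% of 14738. An unadjusted edgeR p under 0.05 was reached by 15 of the 40 with a higher mean and by 0 with a lower one, against 12.5% and 9.03% of all tested genes. DESeq2 called 10 of the 40, each higher, against 5.97% of tested genes called higher and 2.66% called lower, and limma-voom with sample weights called 13, each higher (8.98% of tested genes higher, 5.31% lower). In edgeR 11 of the 40 passed, each higher, when vehicle replicate 3 was left out (6.13% of genes tested there called higher, 2.19% lower), and 0 when any other single library was.

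The 3 dexmedetomidine values lay all above the 3 vehicle values for 19 of the 40 genes (15.6% of all tested genes) and all below them for 2, Srsf9 and Rbm20 (12.0% of all tested genes). For the other 19 the groups overlapped. When only genes with a mean of at least 5 CPM were kept, which also changes the scaling, 18 lay above and 0 below, so neither Srsf9 nor Rbm20 stayed apart. The share of all genes apart in that setting was not counted, so these counts have no background. Vehicle replicate 2 was the lowest of the 6 libraries for 20 of the 40 genes (50%, against 27.1% of tested genes). Vehicle replicate 3 was the highest of the vehicle libraries for 23 of the 40 (57.5%, against 38.1%) and lay within the dexmedetomidine range for 8. The median deviation of the 40 genes from their own means, in log2 CPM, was 0.19, 0.055 and 0.11 in dexmedetomidine libraries 1, 2 and 3 and -0.085, -0.22 and -0.085 in vehicle libraries 1, 2 and 3. The medians were below 0 in all vehicle libraries, and lowest in replicate 2.

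**Figure D1:**
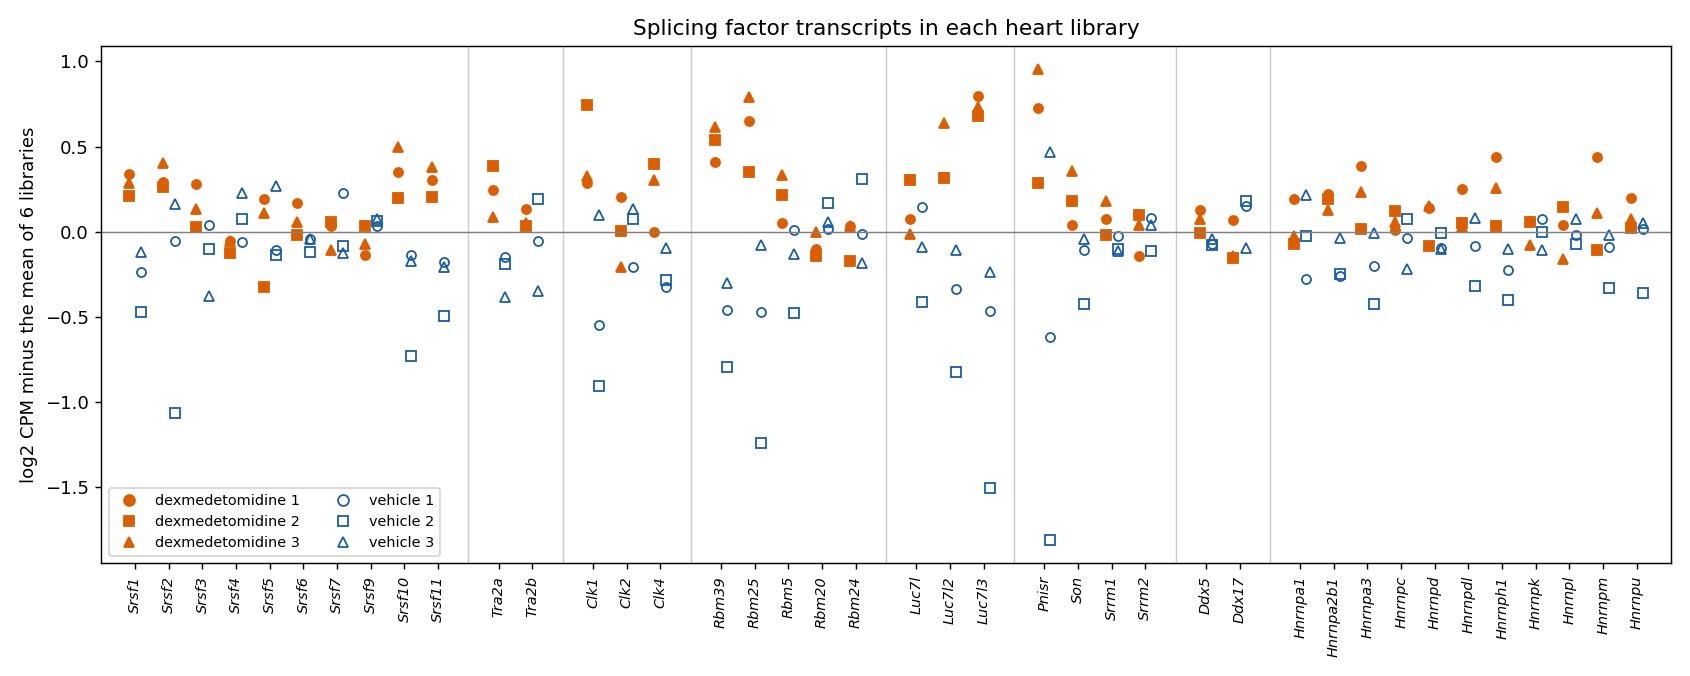
Level of each splicing factor transcript in each library, as log2 CPM minus the mean of the 6 libraries, with filled symbols for dexmedetomidine and open symbols for vehicle, and vertical lines between the classes. The 3 dexmedetomidine points sit above the 3 vehicle points for 19 of the 40 genes, and the open square of vehicle replicate 2 is the lowest point for 20.

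Transcripts that are higher after dexmedetomidine tended to be poor in G and C in this comparison as a whole. Tested genes were cut into 5 equal bins by the GC content of their longest transcript. In the bin with the lowest GC content (29.6% to 43.95%) the median log2 fold change was 0.47, and in the bin with the highest (55.5% to 74.8%) it was -0.30. The splicing factor transcripts had a median GC content of 43.2% (37.1% to 55.4%), against 49.8% for all tested genes with a value, and 23 of the 40 fell in the lowest bin and none in the highest. Within the lowest bin their median log2 fold change was 0.39, next to 0.47 for all genes there. Bins 2, 3 and 4, counted from the lowest, held 6, 6 and 5 of the 40. The medians of these members were 0.22, 0.11 and -0.003, each above the median of all genes in the bin (0.15, -0.01 and -0.15). Across genes, log2 fold change and GC content had a Pearson r of -0.504 and a Spearman rho of -0.491 over the 40, and of -0.583 and -0.63 over 14329 tested genes. These points share the same 6 libraries, and genes are not independent replicates.

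With each library's trend on GC content and length removed, 17 of the 40 were higher and 23 lower, with a median log2 fold change of -0.05, against -0.03 for all genes (45.5% of them higher). The direction turned for 15 genes: Srsf1, Srsf3, Srsf6, Tra2b, Clk4, Rbm5, Srrm1, Ddx5, Hnrnpa1, Hnrnpa3, Hnrnpc, Hnrnpd, Hnrnph1, Hnrnpk and Hnrnpu. The groups stayed apart, higher after dexmedetomidine, for 7 (Srsf2, Srsf11, Rbm39, Rbm25, Luc7l2, Luc7l3 and Son; 7.64% of genes with a value), and 3 came apart as lower (Srsf5, Srsf7 and Hnrnpu; 9.77%). No gene passed the adjusted threshold with the correction. Whether GC content, the mitochondrial share or the cell type markers set any of these differences was not tested, and the corrected log2 fold change is given below beside each gene described in full.

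**Figure D2:**
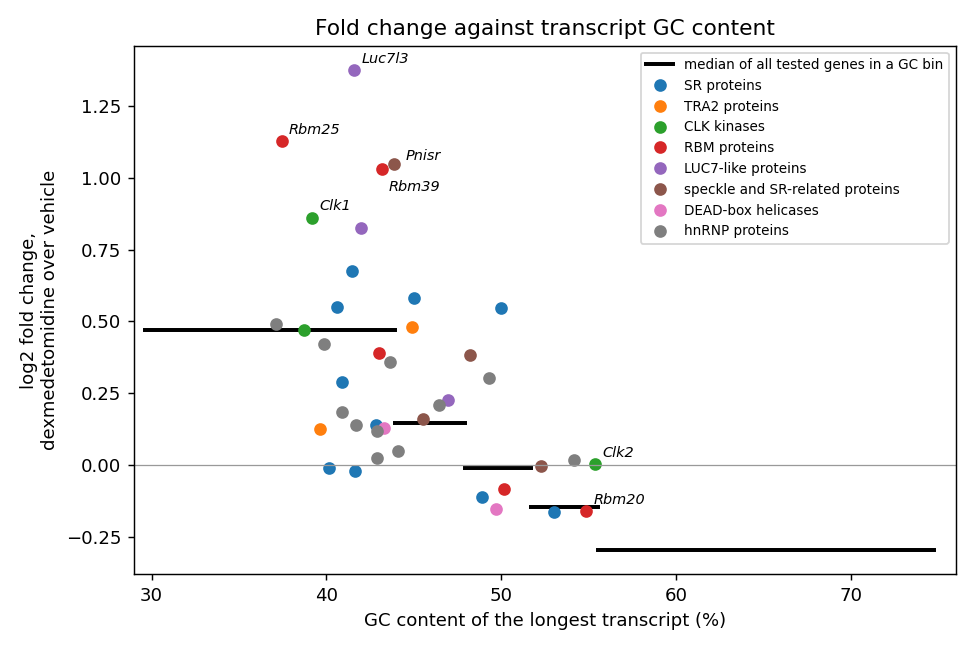
Log2 fold change (dexmedetomidine over vehicle) of each splicing factor gene against the GC content of its longest transcript, coloured by class, with black bars at the median of all tested genes in 5 GC bins of equal size. The bars run from 0.47 in the bin poorest in GC to -0.30 in the richest, and Luc7l3, Rbm25, Pnisr and Rbm39 stand above the bar of their bin.

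SR proteins were higher for 6 of 10 genes and lower for 4, with a median log2 fold change of 0.21. Srsf10, which represses splicing when dephosphorylated, as in heat shock, measured 56.9, 51.2 and 62.9 CPM in dexmedetomidine libraries 1, 2 and 3, and 40.5, 26.9 and 39.5 CPM in the vehicle libraries. All dexmedetomidine libraries were higher than all vehicle libraries, and vehicle replicate 2 was the lowest. Its log2 fold change was 0.68 (SE 0.17, edgeR adjusted p = 0.107), 0.51 without vehicle replicate 2 and 0.09 after the GC and length correction.

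Srsf11, an SR-related protein that represses and activates exons, stood at 67.6, 63.1 and 71.4 CPM after dexmedetomidine, against 48.5, 38.9 and 47.6 CPM after vehicle. These groups did not overlap either, and the log2 fold change of 0.58 (SE 0.13, edgeR adjusted p = 0.101) was 0.28 after correction, with the groups still apart. Srsf1, the founding member of the family, averaged 78.8 ± 3.44 CPM after dexmedetomidine and 53.9 ± 6.61 CPM after vehicle (SD, n = 3 each; log2 fold change 0.55, SE 0.13), and its corrected value was -0.08. Loss of Srsf1 in mouse cardiomyocytes is known to disturb the splicing of Camk2d, which codes for a calcium-dependent kinase.

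Srsf2, a speckle protein also called SC35, was at 7.74, 7.57 and 8.35 CPM after dexmedetomidine and at 6.08, 3.02 and 7.07 CPM after vehicle. The groups did not overlap, but vehicle replicate 2 lay far below the other vehicle libraries. Its log2 fold change was 0.55 (SE 0.29), 0.26 without that library and 0.56 after correction. Counts of Srsf2 are uncertain because its exons overlap those of Mfsd11 and Mettl23 on the opposite strand, and it is not stated whether counting used strand.

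Srsf5 and Srsf7 were the SR genes where a single library set the direction. Srsf5, first found as an insulin-induced gene of rat liver cells, measured 120, 83.9 and 113 CPM after dexmedetomidine, against 97.2, 95.4 and 127 CPM after vehicle. The lowest library was in one group and the highest in the other, and leaving out 1 library gave log2 fold changes between -0.11 and 0.13, the sign turning without dexmedetomidine replicate 2 or vehicle replicate 3. Srsf7, which also helps mRNA export, was at 41.5, 42.0 and 37.5 CPM after dexmedetomidine and 47.3, 38.1 and 37.1 CPM after vehicle. Its log2 fold change of -0.02 ranged from -0.08 to 0.10 with 1 library left out. After correction Srsf5 and Srsf7 were at -0.65 and -0.53, with the dexmedetomidine libraries all below the vehicle libraries.

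Srsf3, the shortest classical SR protein, and Srsf6 had log2 fold changes of 0.29 and 0.14, and -0.33 and -0.28 after correction. Srsf4 averaged 11.2 ± 0.322 CPM after dexmedetomidine and 12.5 ± 1.24 CPM after vehicle, with a log2 fold change of -0.16 (SE 0.15). Srsf9 averaged 11.9 ± 0.709 CPM after dexmedetomidine and 12.8 ± 0.167 CPM after vehicle. Each vehicle value of Srsf9 exceeded each dexmedetomidine value, at a log2 fold change of -0.11 (SE 0.14). The nearest values were almost equal, at 12.626 CPM in dexmedetomidine replicate 2 and 12.633 CPM in vehicle replicate 1. After correction Srsf4 and Srsf9 were at -0.06 and -0.05, and the groups overlapped for both.

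TRA2 proteins bind GAA-rich exonic enhancers and resemble SR proteins in structure. Tra2a measured 36.4, 40.1 and 32.6 CPM after dexmedetomidine and 27.7, 26.9 and 23.5 CPM after vehicle. The groups did not overlap (log2 fold change 0.48, SE 0.13, edgeR adjusted p = 0.112), and the corrected value was 0.22 with overlap. Tra2b, whose own poison exon is a known case of self-limitation, was at 62.2, 57.9 and 58.6 CPM after dexmedetomidine and at 54.4, 64.7 and 44.5 CPM after vehicle. The vehicle libraries spanned the dexmedetomidine range, the log2 fold change was 0.13 (SE 0.15), and without vehicle replicate 3 it was 0.001. The corrected log2 fold changes of Tra2a and Tra2b were 0.22 and -0.64, so the pair differed in sign there.

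CLK kinases had log2 fold changes from 0.003 to 0.86. Clk1, whose transcript is often kept in the nucleus with introns retained until stress releases it, measured 60.0, 82.5 and 61.8 CPM after dexmedetomidine and 33.6, 26.2 and 52.5 CPM after vehicle. Its groups did not overlap, though vehicle replicate 3 came close to the dexmedetomidine libraries. The log2 fold change was 0.86 (SE 0.25, edgeR adjusted p = 0.119), between 0.66 and 1.19 with 1 library left out, and 0.11 after correction with overlap of the groups.

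Clk4, the closest relative of Clk1, stood at 29.7, 39.3 and 36.8 CPM after dexmedetomidine and 23.8, 24.5 and 27.9 CPM after vehicle. Here too no vehicle value reached the dexmedetomidine range, with a log2 fold change of 0.47 (SE 0.14, edgeR adjusted p = 0.12), but the corrected value was -0.35. Clk2 was at 15.7, 13.7 and 11.8 CPM after dexmedetomidine, against 11.8, 14.4 and 14.9 CPM after vehicle. Its values covered the same range in both groups (log2 fold change 0.003, SE 0.17; 0.17 after correction), and its sign turned under DESeq2's scaling, without the filter, without the mitochondrially encoded genes, and without dexmedetomidine replicate 1 or vehicle replicate 1.

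A ratio within a library does not depend on the scaling between libraries, and the pair Clk1 and Clk2 was picked for this after its values were seen. The log2 ratio of Clk1 to Clk2 was 1.94, 2.60 and 2.39 in dexmedetomidine libraries 1, 2 and 3, and 1.51, 0.87 and 1.82 in the vehicle libraries (means 2.31 ± 0.34 and 1.40 ± 0.48, SD). The groups did not overlap in this ratio either. After the GC and length correction, however, the log2 fold changes were 0.11 for Clk1 and 0.17 for Clk2, so Clk1 no longer exceeded Clk2. The GC content of the transcripts was 39.2% for Clk1, 38.8% for Clk4 and 55.4% for Clk2, so the ratio spans nearly the whole GC range of the 40 genes.

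**Figure D3:**
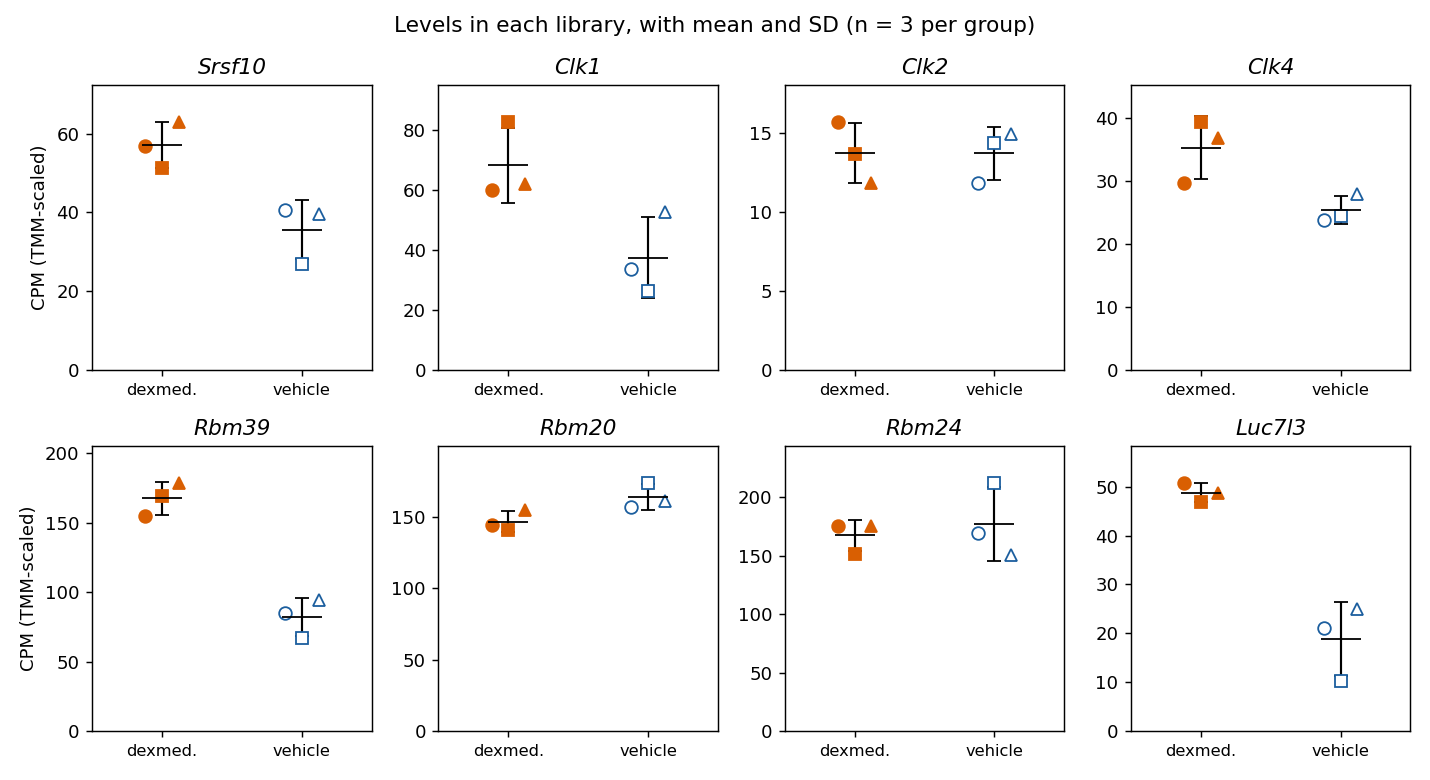
Levels of 8 splicing factor transcripts in CPM, with 1 symbol per library (filled for dexmedetomidine, open for vehicle) and the mean ± SD (n = 3 per group). Srsf10, Clk1, Clk4, Rbm39 and Luc7l3 show no overlap with higher dexmedetomidine values, Rbm20 none with lower ones, and Clk2 and Rbm24 overlap.

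RBM proteins were higher for 3 of 5 genes, and the heart's own RBM20 and RBM24 were not among these. Rbm39, a U2AF-like factor and the target of sulfonamide degraders, measured 155, 169 and 179 CPM after dexmedetomidine and 84.7, 67.0 and 94.4 CPM after vehicle. The gap between the groups was wider than the spread within either one. With a log2 fold change of 1.03 (SE 0.15, edgeR adjusted p = 0.101), between 0.90 and 1.14 with 1 library left out, Rbm39 was at 0.59 after correction, with the groups still apart.

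Rbm25, a U1-associated splicing regulator, was at 54.1, 44.0 and 59.7 CPM after dexmedetomidine and 24.9, 14.6 and 32.6 CPM after vehicle. Again the groups were apart, with vehicle replicate 2 lowest. The log2 fold change of 1.13 (SE 0.27, edgeR adjusted p = 0.108) was 0.87 without that library and 0.30 after correction. An RNA annotated as Gm29361 overlaps exons of Rbm25 on the opposite strand. Rbm5, a regulator of exons in human apoptosis genes, averaged 52.4 ± 5.05 CPM after dexmedetomidine and 39.97 ± 6.68 CPM after vehicle, at a log2 fold change of 0.39 (SE 0.15) and a corrected value of -0.01.

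Rbm20, the titin splicing repressor of heart muscle, was the RBM gene with lower values in every dexmedetomidine library. It measured 144, 140 and 155 CPM after dexmedetomidine and 157, 174 and 161 CPM after vehicle. The nearest values of the groups were 155 and 157 CPM, the log2 fold change was -0.16 (SE 0.11, edgeR adjusted p = 0.450), and after correction it was -0.05 with overlap. Rbm24, a muscle splicing activator, was at 175, 152 and 175 CPM after dexmedetomidine and 170, 213 and 151 CPM after vehicle. Vehicle replicate 2 alone was high, and the log2 fold change of -0.08 (SE 0.15) was 0.06 without it and -0.07 after correction. Both genes are expressed chiefly in muscle cells, and the summed cardiomyocyte markers were lower in all dexmedetomidine libraries, as given above. Whether the level of either gene follows these markers was not tested.

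LUC7-like proteins are relatives of a yeast U1 snRNP protein that affects the choice of the 5′ splice site, and they were higher for 3 of 3 genes. Luc7l3, also called CROP, had the highest log2 fold change of the 40 genes. It measured 50.8, 46.8 and 48.7 CPM after dexmedetomidine and 21.1, 10.3 and 24.9 CPM after vehicle. The dexmedetomidine libraries were close together and the vehicle libraries spread widely below them. Its log2 fold change was 1.38 (SE 0.28, edgeR adjusted p = 0.101), 1.08 without vehicle replicate 2 and 0.85 after correction, with no overlap in either scale.

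Luc7l2 measured 96.1, 95.8 and 120 CPM after dexmedetomidine and 61.0, 43.4 and 71.5 CPM after vehicle. It is a gene often lost in human myeloid malignancy, and here its groups were apart, at 0.83 (SE 0.18, edgeR adjusted p = 0.101) on the log2 scale and 0.22 after correction. Luc7l was at 30.1, 35.3 and 28.3 CPM after dexmedetomidine and 31.7, 21.5 and 26.9 CPM after vehicle, so the groups overlapped (log2 fold change 0.23, SE 0.16; 0.05 after correction). In the log2 ratio of Luc7l3 to Luc7l, also picked after the values were seen, dexmedetomidine libraries were at 0.75, 0.41 and 0.78 and vehicle libraries at -0.58, -1.06 and -0.11. All dexmedetomidine ratios were above 0 and all vehicle ratios below it. The GC content of the transcripts was 41.6% for Luc7l3 and 47.0% for Luc7l.

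Among the speckle and SR-related proteins, Pnisr, a little-studied arginine/serine-rich protein, had a log2 fold change of 1.05 with the widest error of the 40 genes (SE 0.48, edgeR adjusted p = 0.251). It was at 31.8, 23.4 and 37.2 CPM after dexmedetomidine, against 12.5, 5.48 and 26.6 CPM after vehicle. Vehicle replicate 3 was higher than dexmedetomidine replicate 2, and the value ranged from 0.66 without vehicle replicate 2 to 1.77 without vehicle replicate 3. Corrected for GC content and length it was 0.69.

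Son, which builds the core of nuclear speckles, measured 227, 250 and 283 CPM after dexmedetomidine and 205, 165 and 214 CPM after vehicle. Its groups did not overlap (log2 fold change 0.38, SE 0.14, edgeR adjusted p = 0.167), also after correction, at 0.18. Srrm1 and Srrm2 code for SR-related speckle proteins. Srrm1 averaged 72.7 ± 5.06 CPM after dexmedetomidine and 65.1 ± 2.16 CPM after vehicle, with a log2 fold change of 0.16 and a corrected one of -0.12. Srrm2 was at 169, 199 and 191 CPM after dexmedetomidine and 197, 172 and 191 CPM after vehicle. Its ranges nearly coincided, and its log2 fold change of -0.003 changed sign without dexmedetomidine replicate 1, vehicle replicate 1 or vehicle replicate 3, and was -0.02 after correction.

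The DEAD-box helicases Ddx5 and Ddx17 unwind RNA, act together in splicing and transcription, and can stand in for each other. Ddx5 measured 519, 473 and 501 CPM after dexmedetomidine and 453, 451 and 461 CPM after vehicle, so the groups did not overlap, at a log2 fold change of 0.13 (SE 0.11, edgeR adjusted p = 0.527). Ddx17 was at 149, 127 and 129 CPM after dexmedetomidine and 157, 161 and 133 CPM after vehicle. The pair had opposite signs, with Ddx17 at -0.15 (SE 0.13) and overlapping groups. After correction both were lower, at -0.29 and -0.16.

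hnRNP proteins package nascent RNA and often block splice sites, and 11 of 11 genes had a log2 fold change above 0, with a median of 0.18 and a highest value of 0.49. With the GC and length correction 4 of the 11 were above 0, at a median of -0.26. Hnrnph1, a binder of G runs, stood at 148, 112 and 130 CPM after dexmedetomidine and 93.0, 82.5 and 101 CPM after vehicle. The groups were apart at 0.49 (SE 0.14, edgeR adjusted p = 0.112) on the log2 scale, and the corrected value was -0.46. Its transcript, at 37.1% GC, was the poorest in GC of the 40.

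Hnrnpa3 measured 137, 106 and 124 CPM after dexmedetomidine and 91.2, 78.3 and 105 CPM after vehicle. The nearest libraries of the groups, at 106 and 105 CPM, barely missed each other (log2 fold change 0.42, SE 0.15; -0.26 after correction). Hnrnpa2b1, a close relative of Hnrnpa1, averaged 353 ± 11.7 CPM after dexmedetomidine and 275 ± 24.2 CPM after vehicle. Without overlap its log2 fold change was 0.36 (SE 0.12, edgeR adjusted p = 0.132), and 0.005 after correction.

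The direction of Hnrnpa1, Hnrnpk and Hnrnpl hung on single libraries. Hnrnpa1, a repressor that competes with SRSF1, was at 57.9, 48.2 and 49.8 CPM after dexmedetomidine and 41.8, 49.9 and 59.0 CPM after vehicle. Hnrnpk, a binder of C-rich RNA, was at 233, 232 and 212 CPM after dexmedetomidine and 235, 223 and 208 CPM after vehicle. Hnrnpl, which binds CA repeats, was at 138, 149 and 120 CPM after dexmedetomidine and 133, 128 and 142 CPM after vehicle. The groups overlapped for all 3, with log2 fold changes of 0.05, 0.02 and 0.02 and leave-one-out ranges of -0.07 to 0.18, -0.02 to 0.07 and -0.05 to 0.10. After correction they were at -0.16, -0.43 and 0.12.

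Hnrnpc, Hnrnpd, Hnrnpdl, Hnrnpm and Hnrnpu had log2 fold changes of 0.12, 0.14, 0.21, 0.30 and 0.18, and the groups overlapped for each. Corrected values were -0.32, -0.41, 0.06, 0.29 and -0.42. Hnrnpu, a nuclear scaffold protein, was then lower in every dexmedetomidine library. Hnrnpa1, Hnrnpa3 and other hnRNP genes have processed pseudogene copies, and reads that align to several places had a row of their own. They made up 31.2%, 39.5% and 39.4% of all reads in dexmedetomidine libraries 1, 2 and 3, and 31.4%, 28.6% and 28.0% in the vehicle libraries. The level of such genes and its difference between the groups are therefore uncertain. Exons of 16 of the 40 genes overlap another annotated gene in GENCODE M21, for 12 on the opposite strand and for 4 on the same strand, among them Hnrnpm with March2.

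**Figure D4:**
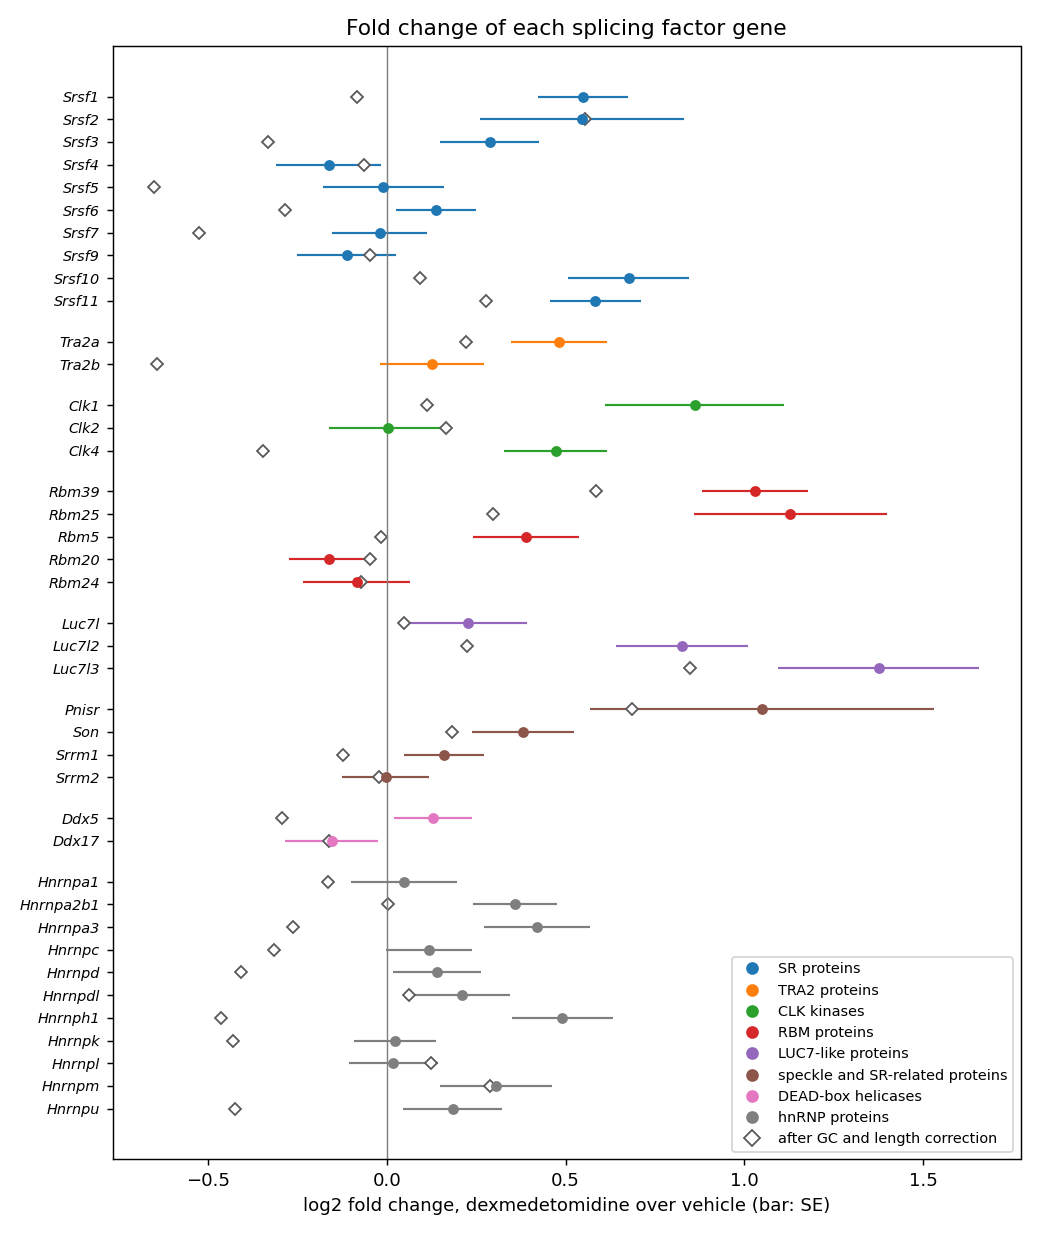
Log2 fold change (dexmedetomidine over vehicle) of each of the 40 genes with its SE, coloured by class, and the same value after GC and length correction as an open diamond. Uncorrected values lie above 0 for 32 genes and corrected ones for 17, with Luc7l3 at 1.38 and 0.85.

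Levels between genes were compared per length, as TPM (counts divided by the deposited gene length and scaled to a common total over nuclear genes). Ddx5 was highest with 343 ± 15.6 TPM after dexmedetomidine and 283 ± 29.6 TPM after vehicle, followed by Hnrnpa2b1 with 340 ± 2.24 TPM after dexmedetomidine and 241 ± 42.0 TPM after vehicle (SD, n = 3 each). Within each vehicle library Ddx5 was above Hnrnpa2b1, at 284, 253 and 312 TPM against 228, 206 and 287 TPM. After dexmedetomidine the order varied by library, with 348, 325 and 355 TPM of Ddx5 against 341, 342 and 338 TPM of Hnrnpa2b1. Rbm24, a muscle gene, came next with 207 ± 18.1 TPM after dexmedetomidine and 196 ± 16.1 TPM after vehicle, above Rbm20 with 86.0 ± 6.43 TPM after dexmedetomidine and 86.4 ± 5.57 TPM after vehicle. The lowest level in vehicle hearts was that of Pnisr, at 11.7 ± 2.82 TPM after dexmedetomidine and 5.28 ± 4.19 TPM after vehicle, while after dexmedetomidine Clk2 and Srsf2 were lower, at 10.3 ± 1.16 TPM and 10.6 ± 0.814 TPM. The level of Luc7l3 was 26.7 ± 0.974 TPM after dexmedetomidine and 9.49 ± 4.47 TPM after vehicle. On this scale the median log2 ratio of all tested genes, dexmedetomidine over vehicle, was 0.151 and not 0, so 38 of the 40 genes were higher in TPM but 31 exceeded that median.

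Annotation gave a feature that the choice of genes did not use. In GENCODE M21, 33 of the 40 genes (82.5%) have a transcript marked for nonsense-mediated decay, the pathway that destroys mRNA with early stop codons, against 25.1% of all tested genes. A transcript with a retained intron is annotated for 33 of 40 (82.5%), against 52.4% of all tested genes. The retained-intron share was not particular to the 40. In the other splicing lists described below it ran from 40% (speckle and paraspeckle genes) to 82.2% (core spliceosome). The share with a transcript for nonsense-mediated decay ran there from 20% (speckle and paraspeckle genes) to 57.9% (other splicing regulators). Gene counts sum over such transcripts and over coding ones, so these data do not say which isoforms made up the differences, and splicing itself was not measured.

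Other splicing genes, listed by textbook function and also with results known, included both directions, and none passed in edgeR. The core spliceosome list held 16 genes with higher and 29 with lower means among 45 tested of 46, with a median log2 fold change of -0.10, and after correction 9 higher and 36 lower with a median of -0.13. Cdc5l, of the complex around Prp19, was at 0.41 (SE 0.12). The branch point binder Sf1 was at -0.46 (SE 0.14) and the Sm ring gene Snrpd2 at -0.73 (SE 0.21).

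Of further hnRNP, SR-like and SR-kinase genes, 9 were higher and 9 lower among 18 tested of 19, with a median of -0.06. After correction 3 were higher and 15 lower, with a median of -0.24. The SR protein kinases Srpk2 and Prpf4b were at 0.76 (SE 0.16) and 1.30 (SE 0.32) on the log2 scale, and at 0.07 and 0.76 after correction. Syncrip was at 0.81 (SE 0.17) and at -0.20 after correction, while Hnrnpab was at -0.78 (SE 0.20) and unmoved by the correction, at -0.78. Hnrnpab had 90.9, 57.1 and 57.2 CPM after dexmedetomidine and 108, 139 and 107 CPM after vehicle, with no overlap.

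Splicing regulators outside the SR and hnRNP families were higher for 12 and lower for 7 of 19 tested, at a median of 0.33. After correction 8 were higher and 11 lower, at a median of -0.08. Mbnl1, which drives the switch from fetal to adult exons in heart, averaged 153 CPM after dexmedetomidine and 67.0 CPM after vehicle (log2 fold change 1.19, SE 0.28, edgeR adjusted p = 0.107; 0.53 after correction). Celf2, its antagonist at several exons, was at 0.53 (SE 0.16), and the polypyrimidine tract binders Ptbp2 and Ptbp3 at 0.80 (SE 0.17) and 0.86 (SE 0.22). After correction Celf2, Ptbp2 and Ptbp3 were at -0.08, -0.38 and 0.06.

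Genes of nonsense-mediated decay and the exon junction complex were higher for 6 and lower for 9 of 15, with a median of -0.02. After correction 10 were higher and 5 lower, with a median of 0.02. Upf2 averaged 21.2 CPM after dexmedetomidine and 8.58 CPM after vehicle (1.30, SE 0.43; 0.97 after correction), and Upf3b, which bridges Upf2 to the exon junction, was at 1.41 (SE 0.58; 1.06 after correction). Vehicle replicate 3 lay nearest to the dexmedetomidine libraries for both, with 14.6 CPM of Upf2 and 5.08 CPM of Upf3b. The other vehicle libraries held 7.73 and 3.41 CPM of Upf2 and 1.40 and 0.826 CPM of Upf3b. Without replicate 3 Upf2 was at 1.92 and Upf3b at 2.54, and the lowest values with 1 library left out were 0.92 and 1.01. The helicase gene Upf1 was at -0.18 (SE 0.13) and the kinase gene Smg1 at 0.47 (SE 0.20). Among 5 speckle and paraspeckle genes 4 were higher and 1 lower, and 3 higher and 2 lower after correction. Malat1, a speckle RNA, measured 389, 349 and 510 CPM after dexmedetomidine and 211, 81.3 and 274 CPM after vehicle (1.14, SE 0.39; 0.69 after correction). The paraspeckle genes Neat1, Sfpq and Nono were at 0.15, 0.02 and 0.10, with overlap.

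Known RBM20 target genes were higher for 3 and lower for 10 of 13, with a median of -0.13. After correction 0 were higher and 13 lower, with a median of -0.18. Camk2d measured 147, 148 and 149 CPM after dexmedetomidine and 119, 109 and 113 CPM after vehicle, without overlap (0.38, SE 0.11, edgeR adjusted p = 0.113; -0.12 after correction). The sarcomere genes Tpm1 and Ldb3 were at -0.25 (SE 0.14) and -0.19 (SE 0.11). Sarcomere genes among these targets are also cardiomyocyte genes, whose markers summed lower after dexmedetomidine. Ttn and Ryr2 stood both among the targets and among those markers, at 0.29 (SE 0.20) and -0.07 (SE 0.13), with overlap for each. Whether the content of cardiomyocyte RNA bears on the targets was not tested. Exon use of the targets was not measured.

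**Figure D5:**
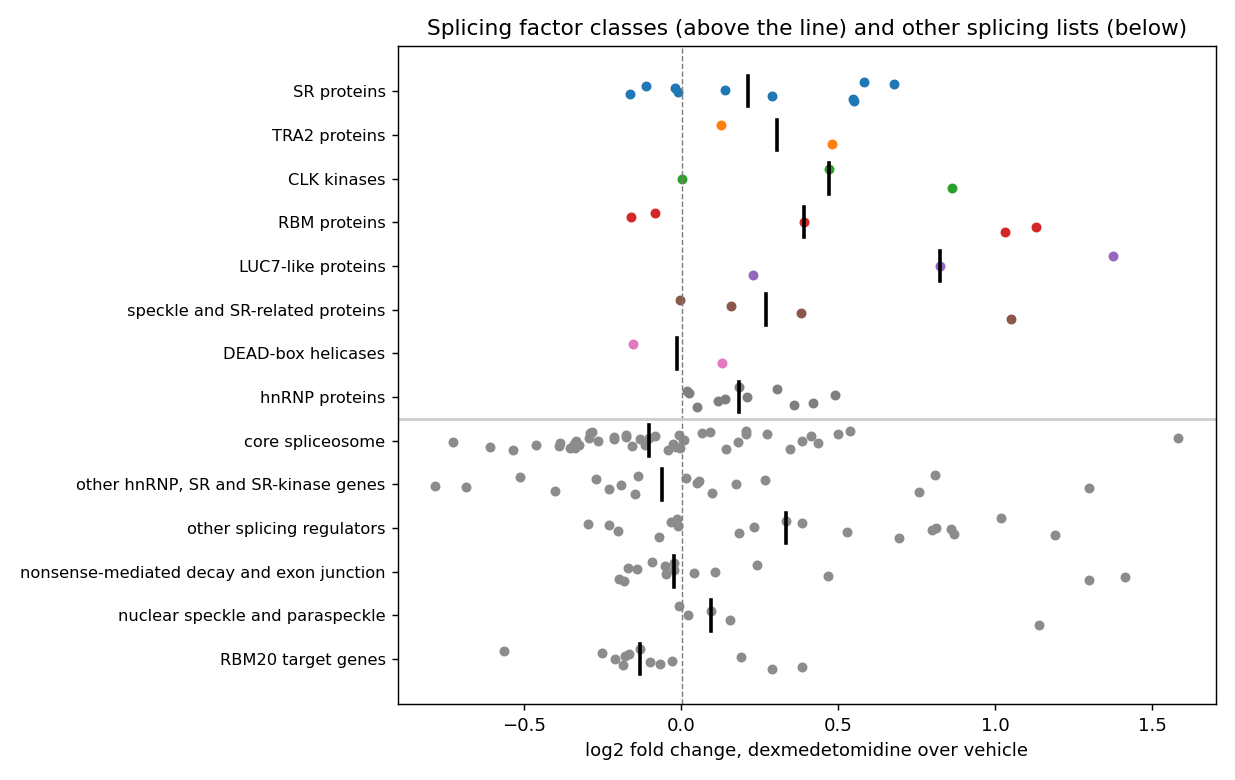
Log2 fold change (dexmedetomidine over vehicle) of every tested gene in the 8 splicing factor classes and in 6 other splicing lists, with a black bar at each median. The medians run from -0.01 (DEAD-box helicases) to 0.83 (LUC7-like proteins) in the classes and from -0.13 (RBM20 targets) to 0.33 (other splicing regulators) in the other lists.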

How the data were processed

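Polyadenylated RNA (poly-T beads, 1 µg RNA, NEBNext Ultra kit, per the labels' protocols) was sequenced in 6 libraries. The authors deposited raw counts per gene and gene lengths in bases; the submitters' processing notes name Trim Galore, HTSeq and mm9. Not given in the sources used here are versions, aligner, annotation and use of strand. The 5 summary rows naming no gene (28.0% to 39.5% of reads aligned to several places, 2.33% to 3.63% in no gene, 1.83% to 2.37% ambiguous) stayed out. Symbols matched 32897 of 37620 identifiers through GENCODE M21 (GRCm38), which also gave GC content and transcript types. The promoter windows carry GRCm38.p6 coordinates, a build other than the mm9 of the counts, and no other coordinates are printed. Of the listed symbols, 1 (Qki) found no row.

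All genes were fitted in edgeR 4.0.16 (R 4.3.3; quasi-likelihood F test, robust, filterByExpr, TMM), with p-values adjusted by Benjamini-Hochberg over 14738 genes and a threshold of 0.05; the biological coefficient of variation was 22.8%. CPM are counts scaled to a common library size by TMM. Fold changes are dexmedetomidine over vehicle. The correction removed each library's spline trend (5 degrees of freedom) on GC content and length. DESeq2 1.42.0 and limma 3.58.1 (voom with quality weights) were alternatives. The fits were also run on simulated data. Those data held no trend on GC content or length and no deviating library, so they cannot show how the fits handle these.

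The labels do not say that libraries are separate animals, so the spread behind each p-value may be technical. Libraries differed beyond sampling noise (chi-square per degree of freedom 31.0 to 480). Members and lists were chosen with earlier results of these data known. Library values are given for the 2 largest differences per class, all CLK genes, Rbm20, Rbm24 and genes whose direction hung on 1 library, and for other lists the 4 tested genes with the smallest p are named, except 2 that are not reported here. The Clk1 to Clk2 and Luc7l3 to Luc7l ratios and the values of Ttn and Ryr2 were added later.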

Additional observations from a re-analysis of the deposited data

How the results depend on the processing

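Over all tested genes edgeR called 0 (1841 higher and 1331 lower at an unadjusted p under 0.05), but 406 without the filter on low counts, 636 with the replicate block, 1272 in DESeq2, 2107 in limma-voom, 134 with the GC and length correction together with the replicate block, and 0 to 1251 with 1 library left out, the highest without vehicle replicate 3 (7 without dexmedetomidine replicate 1 and 5 without replicate 2). Of the 40 splicing factor genes 0 were called in the same fit, against 5 without the filter, 7 with the replicate block, 10 in DESeq2, 13 in limma-voom, 1 (Luc7l3) with the correction and the block, and 0 to 11 with 1 library left out (11 without vehicle replicate 3). Luc7l2, Luc7l3, Rbm25, Rbm39, Srsf10 and Srsf11 were the 6 called by DESeq2, limma-voom, the replicate block and the fit without vehicle replicate 3. These fits reuse the same counts, so their overlap is not independent support. The share of all tested genes called by every one of them was not counted. The number of higher genes went to 17 with the correction, with or without the block, and the median log2 fold change to -0.0481 with it and -0.0489 with the block added. Groups were apart for 18 genes, each higher, with a mean of at least 5 CPM required, where the share over all genes was not counted. They were apart for 10 after the correction, and no such count exists for the block fits. The cause of these shifts was not tested. Same-numbered libraries deviated from their group means with correlations of -0.0547, 0.0361 and 0.153, so the numbers were not taken to pair the samples, and not every library correlated best with its own number. The mitochondrial share differed by 10.5 percentage points, 8.48 to 14.0 with 1 library left out. With 1 library left out 8 of the 40 changed sign. How depth limits single genes was not tested.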
